A study of Mus musculus with 20 samples.

Results

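Solute carriers are membrane proteins that move nutrients, ions, vitamins and metabolites across the plasma membrane and the membranes of organelles, and 131 genes of this family were described in fetal mouse lung. Members were the genes whose symbol is Slc followed by a number, each taken through its brightest probe set that names a single gene, with a log2 value above 4 in at least 5 of 20 arrays. The array named 262 such genes, 126 of which stayed under that level, and 5 further genes (Slc10a6, Slc7a10, Slc34a2, Slc4a1 and Slc2a1) were set aside by name. The 131 members stand among 8068 genes tested in all.

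Left lung lobes of C57Bl6 embryos gave the RNA, which was hybridised to Affymetrix Mouse430A_2 arrays, with 1 animal per array and 5 animals in each of 4 groups. The mutants had the genotype GRCol1-Cre, at E18.5 and at E16.5, and the controls the genotype GR flox, at the same 2 stages. GR is the glucocorticoid receptor, encoded by Nr3c1. In the mutants its floxed gene is removed by Col1-Cre, a Cre placed in a bacterial artificial chromosome with the Col1a2 locus, and per the labels the receptor is then absent from mesenchymal cells, where controls have it. Other cell types of the lobe keep the receptor. The design compares the 2 genotypes at each of the 2 stages.

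Solute carriers are grouped in families by sequence and are named by substrate only after assays of transport. Exchangers and cotransporters at the plasma membrane bring amino acids, sugars, vitamins and metal ions into cells, while the Slc25 genes encode carriers of the inner mitochondrial membrane. In the lung before birth, epithelial cells differentiate and change from secreting to absorbing fluid, and glucocorticoids are known to promote this maturation.

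The classes used here follow the known substrates, and a gene's class is background, not a measurement. Mitochondrial carriers formed the largest class, with 27 members, followed by metal ion transporters with 22, amino acid and peptide transporters with 19 and transporters of nucleosides and nucleotide sugars with 17. Transporters of organic ions, neurotransmitters and vitamins had 12 members, chloride, bicarbonate and sulfate transporters 11, sugar and polyol transporters 9, transporters of fatty acids, acetyl-CoA and choline 7, sodium exchangers 4, phosphate transporters 2 and monocarboxylate transporters 1. Of 11 genes for mono- and dicarboxylates on the array, only Slc16a1 reached the level for testing. The symbols Slc4a1ap (kanadaptin), Slc9a3r1 and Slc9a3r2 (both scaffolds) stand for proteins that bind carriers without carrying a solute, and they are kept in the counts.

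The members were mostly well detected. Of 131 members, 115 lay above a log2 value of 4 in all 20 arrays and 16 in fewer, and 67 had more than 1 probe set. The glucose-6-phosphate exchanger Slc37a1 and the sugar transporter Slc45a3 passed only through the E18.5 controls, so a difference in these genes was built into their choice and their changes are given as values. Without the E18.5 controls, Slc52a3, Slc25a29, Slc12a5 and Slc47a1 would also have stayed under 5 arrays. The genotype differences of Slc52a3 and Slc25a29 are therefore also given as values. Between the stages, Slc4a5, Slc22a19, Slc12a5, Slc47a1, Slc52a3, Slc37a1 and Slc45a3 exceeded 4 at E18.5 alone, Slc25a29 did so in 1 E16.5 array, and Slc39a14 exceeded 4 at E16.5 alone. Stage differences of these 9 members are therefore given as values with no test. Just inside the limit of 5 arrays, Slc37a1, Slc45a3 and the metal transporter Slc39a14 averaged 3.35, 3.51 and 3.60 over the 20 arrays. Just outside it, with 4 arrays above 4, Slc16a6 averaged 3.39. The median of the members' mean log2 values was 7.33, against 8.46 for all genes tested. The brightest probe sets of their classes included the adenine nucleotide translocator Slc25a4 (12.94 over 20 arrays), the choline transporter-like gene Slc44a2 (11.82), the neutral amino acid transporter Slc38a2 (11.74), the sodium-potassium-chloride cotransporter Slc12a2 (11.54) and the zinc transporter Slc30a5 (10.02). Levels of different probe sets cannot be ranked as transcript amounts, because probes differ in affinity.

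Several features of the arrays bear on every comparison below. Nr3c1 had a log2 value of 7.80 ± 0.19 in E18.5 mutants and 9.42 ± 0.22 in E18.5 controls, and 7.07 ± 0.45 in E16.5 mutants and 8.78 ± 0.22 in E16.5 controls (SD, n = 5 each). It was lower in mutants at both stages (-1.62, SE 0.17, adjusted p = 1.62e-06 at E18.5 and -1.72, SE 0.17, adjusted p = 1.66e-05 at E16.5). E18.5 control replicate 3 stood apart from its group, with 12 of the 26 outlying values found among the 45 members named below. Values without it are given for some of the members in which it decided an overlap or a call. By Xist and Y-linked genes, 2 of 5 E18.5 mutants, 3 of 5 E18.5 controls, 5 of 5 E16.5 mutants and 1 of 5 E16.5 controls were female. The lung epithelial marker Sftpc was bright in every group (15.15 in E18.5 mutants), while the probe set of the epithelial factor Nkx2-1 was dim in every group (1.90 to 2.05). In the E18.5 mutants, all 7 alveolar type I markers were lower (list means of 9.71 to 10.60, against 10.63 to 11.47 in E18.5 controls), 7 of 9 endothelial markers were lower (9.67 to 9.91, against 10.01 to 10.33) and all 9 markers of dividing cells were higher (9.16 to 10.39, against 8.58 to 9.88). Of 9 alveolar type II markers 1 was higher and 1 lower (11.54 to 12.42, against 12.08 to 12.58), and among 9 erythroid markers on the array the list means were 3.61 to 4.09, against 4.05 to 5.23, with 6 defining markers dim in all 4 groups. Of 9 fibroblast and smooth muscle markers 2 were lower in E18.5 mutants (list means of 11.78 to 12.03, against 11.92 to 12.21). Of 6 macrophage markers tested 1 was lower, and of 7 cardiac muscle markers tested 1 was higher. The part of these shifts in the results for solute carriers was not tested. In RNA from a whole lobe, fewer cells of a type and less RNA per cell cannot be told apart.

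At E18.5, loss of the receptor from mesenchyme went with changes in both directions across the family. Of 131 members, 15 were higher and 24 lower in E18.5 mutants than in E18.5 controls at an adjusted p under 0.05 (limma, Benjamini-Hochberg over 8068 genes), which is 29.8% of the members. Over all genes tested, 34.5% passed, 18.6% higher and 15.9% lower. The share of members that passed was thus near the background, and the members' median log2 difference was -0.05, against 0.03 for all genes. Leaving out the 6 members that met the limit only with the help of the E18.5 controls, 15 were higher and 20 lower of 125. Of the 39 members, 20 changed by at least 1.5-fold, 5 of them higher and 15 lower (3.82% and 11.5% of the family, against 6.07% and 7.06% of all genes tested, or 15.3% against 13.1% in either direction). In 20 of the 39 all 5 mutants lay beyond all 5 controls. Called or not, the groups did not overlap in 23 members (17.6%), against 17.4% of all genes tested. Without control replicate 3 the counts were 13 higher and 29 lower. Where the probe set with the largest SD stood for each gene, they were 6 higher and 24 lower.

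**Figure D1:**
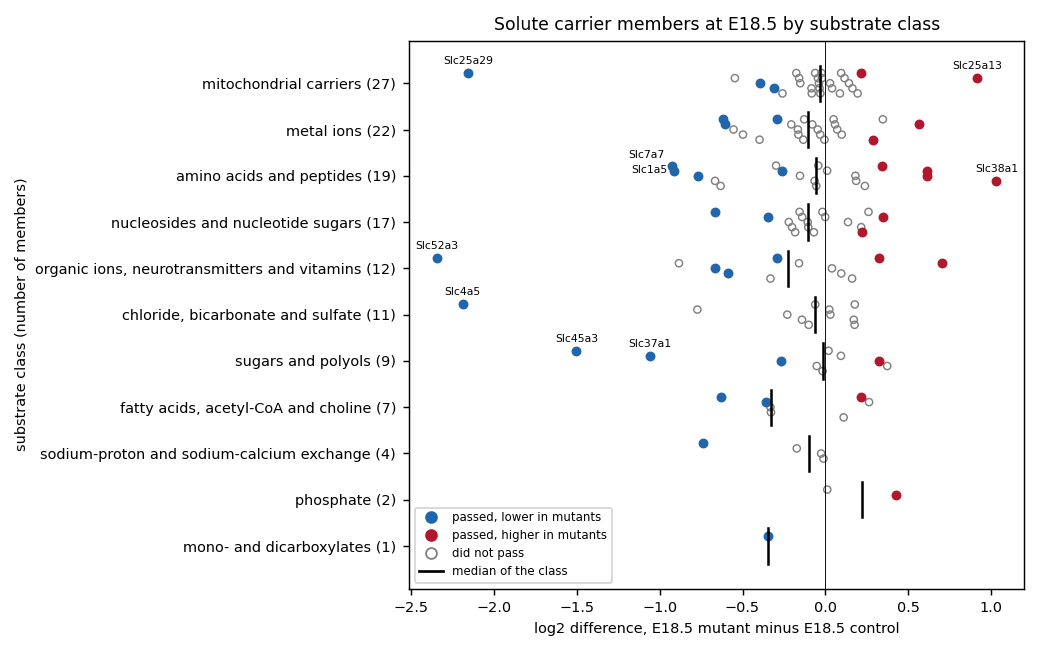
Log2 difference of each member between E18.5 mutants and E18.5 controls (horizontal axis, 5 animals per group), by substrate class (vertical axis, with the number of members). Filled points passed at an adjusted p under 0.05 and open points did not, and the bars mark class medians. The lowest values, at -2.35 for Slc52a3, -2.19 for Slc4a5 and -2.16 for Slc25a29, came from 3 different classes.

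The largest fall was in Slc52a3, which encodes a riboflavin transporter. Its log2 values were 3.55, 3.86, 5.57, 3.93 and 4.89 in E18.5 mutants, against 7.38, 6.94, 5.22, 6.84 and 7.17 in E18.5 controls. All but 1 of the mutants lay below every control, and the lowest control was replicate 3. The difference was -2.35 (SE 0.36), a level of 19.7% of controls, and -2.72 without that control. At E16.5 the transcript was dim in every animal of both genotypes, between 2.71 and 3.43.

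Slc4a5, a sodium bicarbonate cotransporter, followed with a fall to 21.9% of controls. It measured 4.55, 4.12, 6.24, 4.23 and 5.79 in E18.5 mutants, against 7.20, 7.53, 6.48, 7.07 and 7.60 in E18.5 controls. The groups did not overlap, although mutant replicates 3 and 5 came close to the lowest control (difference -2.19, SE 0.34, adjusted p = 0.000105). No other member for chloride, bicarbonate or sulfate passed, out of 11 (9.09% called, against 34.5% of all genes tested). The chloride-loading cotransporter Slc12a2 had a log2 value of 12.01 ± 0.14 in E18.5 mutants and 11.84 ± 0.06 in E18.5 controls (adjusted p = 0.374).

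Slc25a29, a mitochondrial carrier of basic amino acids, was the third. E18.5 mutants had log2 values of 3.67, 3.70, 4.20, 3.69 and 3.74, against 6.53, 6.45, 4.47, 6.12 and 6.22 in E18.5 controls. Every mutant lay within the range of the E16.5 arrays, 3.66 to 4.29, and control replicate 3 lay nearest to the mutants. The difference was -2.16 (SE 0.27), and -2.53 without replicate 3. Since the mutant mean of 3.80 ± 0.23 is below the level of 4 that marks a dim probe set, the floor of the measurement limits the size of this fall. The other 4 probe sets of Slc25a29 were dimmer, and all 4 had differences below 0, from -1.44 to -0.93.

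Both sugar transporters that passed the filter through the E18.5 controls alone had lower values in E18.5 mutants. Slc45a3, a transporter of sugars also called prostein, had log2 values of 3.28, 3.13, 3.32, 3.41 and 3.81 in E18.5 mutants, against 5.05, 5.29, 4.52, 4.72 and 4.88 in E18.5 controls (difference -1.50, SE 0.14). Slc37a1, which exchanges glucose-6-phosphate for phosphate at the endoplasmic reticulum, had 3.78, 3.47, 3.69, 3.23 and 3.91 in E18.5 mutants, against 4.98, 4.74, 4.23, 4.63 and 4.81 in E18.5 controls (-1.06, SE 0.15). The groups did not overlap in either gene, and every mutant was dim in both. Slc37a3, a relative of Slc37a1, moved the other way (0.33, SE 0.07, adjusted p = 0.00176). It had 8.04, 8.08, 8.09, 8.21 and 8.09 in E18.5 mutants and 7.73, 7.83, 7.80, 7.85 and 7.65 in E18.5 controls, again without overlap. Its other probe set, however, averaged 6.38 in both groups. Of 9 members of this class, 1 was higher and 3 lower (44.4%, against 34.5% of all genes tested). The remaining one was the sugar exporter Slc50a1 at -0.27 (SE 0.10), named here after its values were seen.

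**Figure D2:**
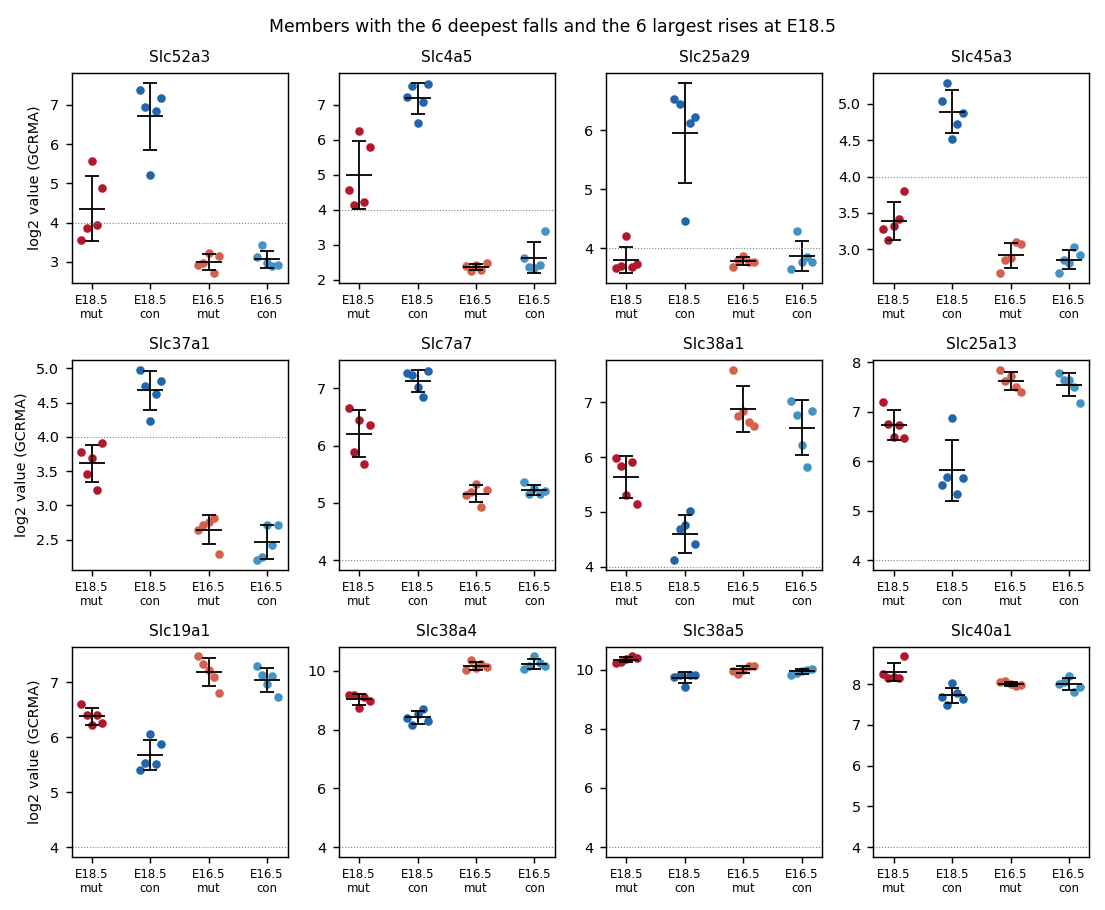
Log2 values in each of the 20 arrays for the 6 members with the deepest falls and the 6 with the largest rises at E18.5, in 4 groups of 5 animals (E18.5 mutant, E18.5 control, E16.5 mutant, E16.5 control). Bars show the mean and SD, the dotted line marks the level of 4, and each panel has its own vertical range. E18.5 control replicate 3, the third point of its group, lies closest to the mutants in Slc52a3, Slc25a29 and Slc25a13.

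Promoters are shown because the deleted gene encodes a factor that binds DNA, so that the letters near these starts are of interest. They are those of the deepest falls and the largest rises among called members with a sequence held. None was held for Slc52a3, the deepest fall, or for Slc38a1, the largest rise. RefSeq sequences of 250 bases before to 50 after the start (build GRCm38.p6) were held for 104 of 131 members, and for 6 of the genes above and below they are given 5′ to 3′ on the gene's strand. Capitals mark the short glucocorticoid receptor motif AGAACA or its reverse TGTTCT, and the GC box GGGCGG or its reverse CCGCCC. The intervals are chr6:83237125-83237424 on the plus strand for Slc4a5, chr12:108835827-108836126 on the minus strand for Slc25a29, chr1:131962665-131962964 on the plus strand for Slc45a3, chr17:31295974-31296273 on the plus strand for Slc37a1, chr6:6217124-6217423 on the minus strand for Slc25a13 and chr10:77032489-77032788 on the plus strand for Slc19a1. The first 4 genes were lower and the last 2 higher at E18.5. RefSeq genes can have several starts, and the start used here lies 29795 bases inside the annotated gene for Slc4a5, 1089 for Slc37a1, 470 for Slc19a1 and 131 for Slc25a13, while for Slc25a29 and Slc45a3 it is the gene's outermost start.
Slc4a5: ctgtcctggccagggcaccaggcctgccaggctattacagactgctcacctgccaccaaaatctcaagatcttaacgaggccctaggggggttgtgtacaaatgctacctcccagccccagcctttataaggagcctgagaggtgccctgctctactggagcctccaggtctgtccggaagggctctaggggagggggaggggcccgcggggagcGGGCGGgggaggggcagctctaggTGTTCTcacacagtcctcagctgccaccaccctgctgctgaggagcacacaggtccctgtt
Slc25a29: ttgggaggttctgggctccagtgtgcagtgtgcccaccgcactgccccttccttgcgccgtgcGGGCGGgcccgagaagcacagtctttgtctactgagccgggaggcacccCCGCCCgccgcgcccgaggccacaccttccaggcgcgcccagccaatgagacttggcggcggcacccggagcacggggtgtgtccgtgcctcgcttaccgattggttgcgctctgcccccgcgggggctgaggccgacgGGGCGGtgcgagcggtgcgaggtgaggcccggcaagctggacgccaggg
Slc45a3: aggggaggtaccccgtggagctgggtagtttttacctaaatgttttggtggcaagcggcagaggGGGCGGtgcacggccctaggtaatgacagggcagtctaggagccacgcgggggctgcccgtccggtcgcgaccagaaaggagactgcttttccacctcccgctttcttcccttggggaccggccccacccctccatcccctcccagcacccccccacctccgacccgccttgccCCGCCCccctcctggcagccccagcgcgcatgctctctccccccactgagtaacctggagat
Slc37a1: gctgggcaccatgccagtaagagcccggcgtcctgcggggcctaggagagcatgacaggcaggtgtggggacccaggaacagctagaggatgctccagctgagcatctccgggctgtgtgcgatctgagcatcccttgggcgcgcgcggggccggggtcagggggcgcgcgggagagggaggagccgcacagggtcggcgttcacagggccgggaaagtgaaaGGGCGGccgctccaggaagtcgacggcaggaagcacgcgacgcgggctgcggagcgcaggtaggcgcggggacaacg
Slc25a13: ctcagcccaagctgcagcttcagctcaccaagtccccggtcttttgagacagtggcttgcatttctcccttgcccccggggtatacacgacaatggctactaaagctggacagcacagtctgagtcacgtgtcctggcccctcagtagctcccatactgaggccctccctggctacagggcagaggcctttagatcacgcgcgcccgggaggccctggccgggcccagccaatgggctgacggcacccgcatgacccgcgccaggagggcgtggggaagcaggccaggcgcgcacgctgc
Slc19a1: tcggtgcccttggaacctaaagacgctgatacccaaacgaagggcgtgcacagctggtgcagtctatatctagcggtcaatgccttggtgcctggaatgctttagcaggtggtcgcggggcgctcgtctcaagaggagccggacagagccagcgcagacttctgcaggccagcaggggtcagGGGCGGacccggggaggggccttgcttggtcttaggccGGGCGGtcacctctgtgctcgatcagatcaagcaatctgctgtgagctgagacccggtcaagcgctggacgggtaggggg

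In these windows Slc4a5 held 1 receptor motif, which begins 11 bases before that internal start, and the other 5 held none. GC boxes numbered 3 in Slc25a29, 2 in Slc45a3 and in Slc19a1, 1 in Slc4a5 and in Slc37a1, and 0 in Slc25a13. Searched on both strands, AGAACA occurred in 12 of 104 member promoters (11.5%), against 11.9% of the 6579 held for genes tested and 19% of all 27025 of this length. Among promoters of lower members 3 of 20 held it (Slc23a2, Slc4a5 and Slc7a7), and among those of higher members 1 of 11 (Slc46a1). The full glucocorticoid response element, searched by its commonly used consensus, was in 0 of 104 member promoters, against 0.334% of those of genes tested. GGGCGG was in 84 of 104 (80.8%), against 67.4% of those of genes tested and 35.9% of all. In all, 12 motifs were searched, and the GC box was picked for the capitals after the matches of all 12 had been seen. Among the other 9, the E-box CACGTG was in 15 of 104 member promoters (14.4%, against 10.4% of those of genes tested and 7.24% of all) and CCAAT in 41 (39.4%, against 38.6% and 37.9%). TATAAA was in 6 (5.77%, against 6.98% and 14.2%), TGANTCA, the AP-1 motif, in 5 (4.81%, against 4.56% and 7.93%), GATAAG in 3 (2.88%, against 4.68% and 7.43%) and ACTACAA in 3 (2.88%, against 4.76% and 3.45%). The amino acid response element was in 3 (2.88%, against 0.623% and 0.929%), its looser form also in 3 (2.88%, against 2.14% and 4.04%), and the palindromic cAMP response element in 1 (0.962%, against 3.25% and 1.88%). These shares were not tested. A match describes letters and is no measured binding site, and sites further from the start were not searched.

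Amino acid transporters split evenly. Of 19 members, 4 were higher and 4 lower in E18.5 mutants (42.1%, against 34.5% of all genes tested), while the class median was -0.05. Of the neutral amino acid transporters of the Slc38 family, Slc38a1, Slc38a4 and Slc38a5 rose. Slc38a1, a glutamine transporter, had log2 values of 5.98, 5.84, 5.30, 5.90 and 5.15 in E18.5 mutants, against 4.12, 4.69, 4.77, 5.01 and 4.41 in E18.5 controls. Every mutant lay above every control, though the lowest mutant and the highest control were close (difference 1.03, SE 0.24, adjusted p = 0.00336). Slc38a4 had 9.18, 9.17, 8.73, 9.10 and 8.97 in E18.5 mutants and 8.40, 8.16, 8.53, 8.70 and 8.28 in E18.5 controls (0.62, SE 0.11). Slc38a5, which carries glutamine in exchange with protons, had 10.24, 10.27, 10.38, 10.46 and 10.40 in E18.5 mutants and 9.78, 9.82, 9.41, 9.83 and 9.84 in E18.5 controls (0.61, SE 0.08, adjusted p = 2.13e-05). Neither gene's groups overlapped. Slc38a2, another neutral amino acid transporter, had 11.76 ± 0.13 in E18.5 mutants and 11.57 ± 0.11 in E18.5 controls and did not pass (adjusted p = 0.104).

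Light chains of the cationic amino acid transporters, which pair with a shared heavy chain, went in opposite directions. Slc7a7 fell, with log2 values of 6.66, 5.89, 6.45, 5.69 and 6.37 in E18.5 mutants, against 7.26, 7.24, 7.03, 6.85 and 7.30 in E18.5 controls (-0.93, SE 0.15, adjusted p = 0.000118). Slc7a6 rose, with a mean of 8.13 ± 0.10 in E18.5 mutants and 7.78 ± 0.13 in E18.5 controls (SD, n = 5 each, limma difference 0.35, SE 0.10, adjusted p = 0.0100). In both genes the 2 groups were fully apart. Slc7a5, the light chain for large neutral amino acids, measured 4.95 ± 0.59 in E18.5 mutants and 5.58 ± 0.21 in E18.5 controls and narrowly missed the threshold (adjusted p = 0.0558).

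Of the Slc1 transporters of anionic and small neutral amino acids, Slc1a5 and Slc1a1 fell, while Slc1a3 (-0.04, SE 0.16) and Slc1a4 (-0.05, SE 0.11) did not pass. Slc1a5, which exchanges glutamine and other neutral amino acids, had log2 values of 8.86, 8.63, 9.06, 8.93 and 9.14 in E18.5 mutants, against 10.06, 10.14, 9.26, 9.74 and 9.98 in E18.5 controls. The groups did not overlap, with control replicate 3 the lowest control (-0.91, SE 0.15, adjusted p = 0.000181). Slc1a1, a transporter of glutamate and cysteine, had 4.84, 4.52, 5.31, 4.93 and 5.64 in E18.5 mutants, against 6.06, 5.94, 4.38, 6.38 and 6.31 in E18.5 controls. Here control replicate 3 lay below all mutants and the other controls above them, so that the difference of -0.77 (SE 0.28, adjusted p = 0.0374) became -1.13 (adjusted p = 2.61e-05) without that animal. The fourth lower member of this class, the lysosomal amino acid exporter Slc66a1, differed by -0.26 (SE 0.10), and it too was named after its values were seen.

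Vitamin transporters also went both ways. Of 12 members for organic ions, neurotransmitters and vitamins, 2 were higher and 4 lower (50%, against 34.5% of all genes tested). The folate transporters Slc19a1 and Slc46a1 rose. Slc19a1, the reduced folate carrier, had log2 values of 6.61, 6.41, 6.22, 6.40 and 6.25 in E18.5 mutants, against 5.41, 5.53, 6.05, 5.52 and 5.87 in E18.5 controls, with no overlap (0.70, SE 0.14, adjusted p = 0.000842). Slc46a1, the proton-coupled folate transporter, had 5.11, 4.71, 5.04, 5.06 and 4.72 in E18.5 mutants, against 4.63, 4.63, 4.51, 4.64 and 4.61 in E18.5 controls, and all mutants were above all controls (0.33, SE 0.09, adjusted p = 0.00999). The vitamin C transporter Slc23a2 fell, with 5.40, 4.73, 4.79, 5.19 and 5.60 in E18.5 mutants, against 5.97, 5.76, 4.99, 5.92 and 6.38 in E18.5 controls, and its groups overlapped through control replicate 3 (-0.66, SE 0.20, adjusted p = 0.0159, and -0.87 without that animal). The other lower members beside Slc52a3 were Slc22a23 (-0.59, SE 0.12) and the thiamine transporter Slc19a2 (-0.29, SE 0.09), both named after their values were seen. The creatine transporter Slc6a8, the brightest of the class, measured 7.66 ± 0.24 in E18.5 mutants and 7.50 ± 0.17 in E18.5 controls (adjusted p = 0.319).

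Among 27 mitochondrial carriers, 2 were higher and 3 lower (7.41% and 11.1%, against 18.6% and 15.9% of all genes tested). Slc25a13, an aspartate-glutamate carrier of the malate-aspartate shuttle, had log2 values of 7.20, 6.76, 6.48, 6.74 and 6.47 in E18.5 mutants, against 5.51, 5.68, 6.87, 5.34 and 5.65 in E18.5 controls. Control replicate 3 lay within the mutants and the other 4 controls below them, and the difference of 0.92 (SE 0.22, adjusted p = 0.00347) was 1.18 without it. Slc25a33, a pyrimidine nucleotide carrier, was lower by a smaller amount (-0.31, SE 0.10, adjusted p = 0.0268), as was Slc25a47 (-0.39, SE 0.12). The second rise was in the ornithine carrier Slc25a15 (0.21, SE 0.08), named after its values were seen. The adenine nucleotide translocator Slc25a4 measured 12.84 ± 0.12 in E18.5 mutants and 12.74 ± 0.15 in E18.5 controls (adjusted p = 0.402).

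Of 22 metal ion transporters, 2 were higher and 3 lower (22.7%, against 34.5% of all genes tested). Both copper transporters were lower. Slc31a1, the high-affinity copper importer, had log2 values of 9.50, 9.32, 10.01, 9.06 and 9.89 in E18.5 mutants, against 10.43, 10.25, 9.48, 10.31 and 10.39 in E18.5 controls, and its groups overlapped through control replicate 3 (-0.62, SE 0.17, adjusted p = 0.00916, and -0.79 without that animal). Its relative Slc31a2 had 6.22, 6.09, 6.11, 5.98 and 6.23 in E18.5 mutants, against 6.68, 6.93, 6.89, 6.45 and 6.73 in E18.5 controls, and its groups were fully apart (-0.61, SE 0.10, adjusted p = 0.000184). Ferroportin, Slc40a1, which exports iron from cells, rose. It had 8.26, 8.16, 8.19, 8.16 and 8.68 in E18.5 mutants, against 7.68, 7.50, 8.02, 7.78 and 7.65 in E18.5 controls, without overlap (0.57, SE 0.10, adjusted p = 0.000497), and its other probe set was higher by 0.54. The zinc transporter Slc39a6 was higher by 0.29 (SE 0.07), and by 0.33 without control replicate 3, through which alone its groups overlapped. The heme transporter Slc48a1 was lower by a difference of -0.29 (SE 0.09, named after its values were seen). The brightest member, Slc30a5, lay at 10.01 ± 0.04 in E18.5 mutants and 10.01 ± 0.07 in E18.5 controls.

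In the remaining classes, 10 members passed. The nucleobase transporter Slc43a3 had log2 values of 9.55, 9.39, 9.54, 9.41 and 9.31 in E18.5 mutants, against 10.18, 10.06, 9.97, 10.05 and 10.27 in E18.5 controls, with a gap between the groups (-0.67, SE 0.07, adjusted p = 3.04e-06). Of 17 transporters of nucleosides and nucleotide sugars 2 were higher and 2 lower (23.5%, against 34.5% of all genes tested). Among them were Slc35b2, which carries the sulfate donor PAPS into the Golgi (0.35, SE 0.12), and Slc35f6 (-0.34, SE 0.12). The fourth, the lysosomal nucleoside transporter Slc29a3 (0.22, SE 0.08), was named after its values were seen. The choline transporter-like genes parted, since Slc44a3 (-0.63, SE 0.21) and Slc44a2 (-0.36, SE 0.11) were lower and Slc44a1 (0.21, SE 0.08) was higher. These are 3 of 7 members of that class (42.9%, against the same 34.5%). The phosphate transporter Slc20a2 rose (0.43, SE 0.09), while its relative Slc20a1 measured 7.98 ± 0.29 in E18.5 mutants and 7.97 ± 0.12 in E18.5 controls. The lactate and pyruvate transporter Slc16a1 fell (-0.35, SE 0.10). The scaffold Slc9a3r2 fell (-0.74, SE 0.18), and the related scaffold Slc9a3r1 did not pass (-0.17, SE 0.10). In Slc35b2, Slc44a1, Slc20a2, Slc16a1 and Slc9a3r2 the groups overlapped only through E18.5 control replicate 3. Without that animal the differences were 0.46, 0.27, 0.48, -0.40 and -0.84 in the same order.

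Some of these smaller calls depended on which single arrays were in the fit. The calls of Slc35b2, Slc1a1, Slc23a2, Slc44a3, Slc44a2, Slc44a1, Slc25a47 and Slc35f6 were lost when certain single arrays were left out, with adjusted p-values of 0.0509 to 0.122 in those fits. Of these, Slc35f6 lost its call without E18.5 control replicate 3 (-0.26, adjusted p = 0.0866). Without that control the limma adjusted p was lower than with all arrays for Slc1a1 (2.61e-05), Slc23a2 (0.000437), Slc35b2 (0.00165) and Slc25a47 (0.00829). It was also lower for Slc44a1 (0.00885), Slc44a2 (0.00959) and Slc44a3 (0.0147). For Slc38a4, Slc7a6, Slc39a6, Slc44a1 and Slc31a2, the more variable probe set of the gene had the same sign and did not pass.

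**Figure D3:**
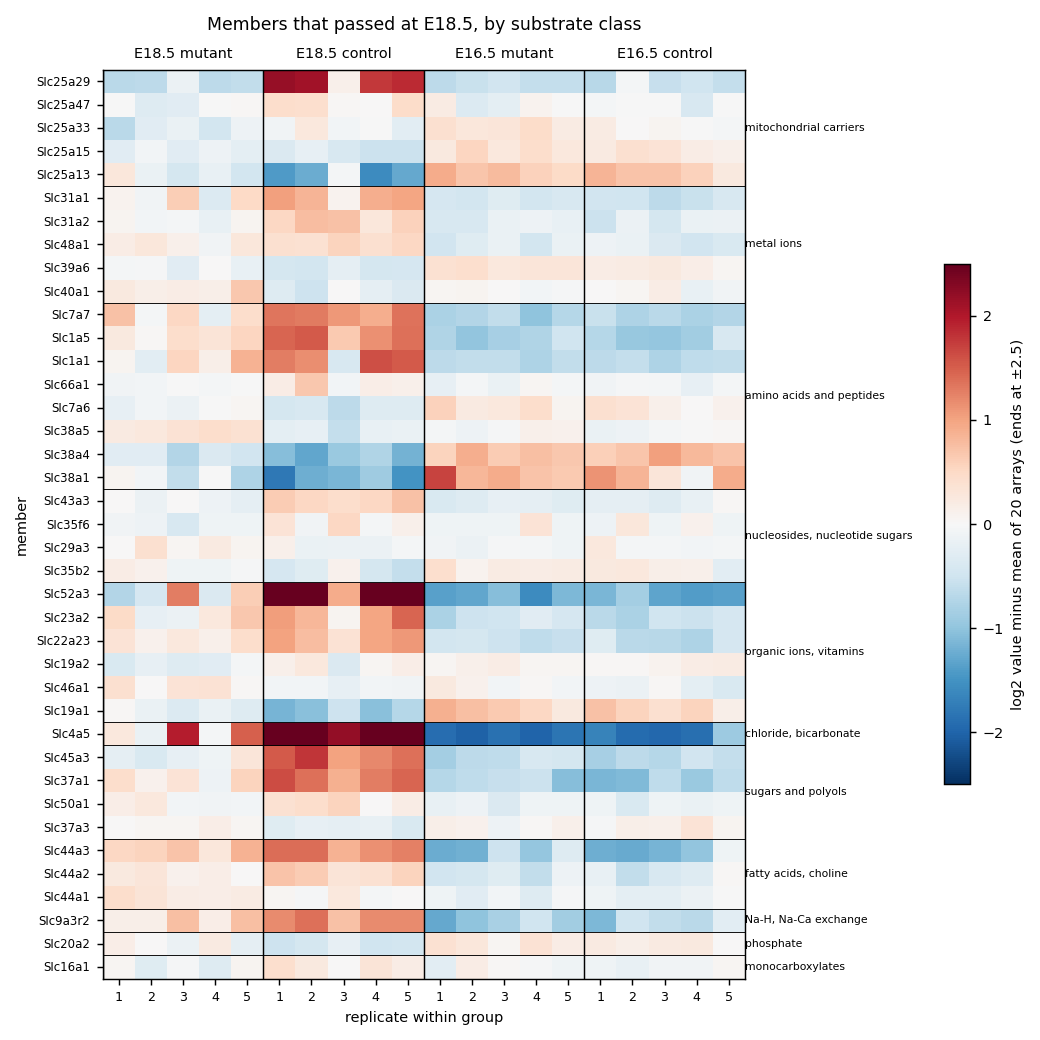
The 39 members that passed at E18.5, one per row in their substrate classes, with the 20 arrays in columns. Colour gives the log2 value minus the member's mean over the 20 arrays and ends at 2.5 in either direction. E18.5 control replicate 3 stands apart from its fellows in Slc25a29 (4.47), Slc31a1 (9.48) and Slc1a1 (4.38).

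Carriers of the family that bear other symbols were counted from a list of known transporters. Of 18 tested, 0 were higher and 7 lower in E18.5 mutants, with a median log2 difference of -0.19. This is 38.9% called, against 34.5% of all genes tested (18.6% higher and 15.9% lower). The prostaglandin transporter Slco2a1 averaged 8.60 ± 0.32 in E18.5 mutants and 9.81 ± 0.29 in E18.5 controls (SD, n = 5 each), and the groups did not overlap (-1.20, SE 0.21, adjusted p = 0.000292). Lower values were also found for Flvcr2 (-0.97, SE 0.28), the pyrophosphate transporter Ank (-0.93, SE 0.11) and the organic anion transporter Slco3a1 (-0.84, SE 0.23). The sodium pump maintains the gradient that many solute carriers use. Of 10 of its subunits and of carrier chaperones, 0 were higher and 4 lower (40% called, against the same 34.5%). These were the pump regulators Fxyd5 (-0.88, SE 0.14) and Fxyd1 (-0.69, SE 0.18), the beta subunit Atp1b1 (-0.74, SE 0.19) and Emb (-0.63, SE 0.23), a chaperone of monocarboxylate transporters. Both lists were drawn up with earlier results of these data known.

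At E16.5 no member passed. Of 131 members 0 were called in either direction with limma, and 0.248% of all genes tested passed (0.0496% higher and 0.198% lower). In 11 members (8.4%) the unadjusted limma p was under 0.05, against 4.41% of all genes tested. The smallest p was that of Slc25a23, which exchanges ATP-magnesium for phosphate across the inner mitochondrial membrane. Its log2 values were 4.52, 4.32, 4.46, 3.95 and 4.30 in E16.5 mutants, against 3.36, 3.37, 3.70, 4.04 and 3.93 in E16.5 controls, and the groups overlapped in 1 pair (0.63, SE 0.20, adjusted p = 0.496). Slc25a33 had 6.23, 6.13, 6.14, 6.30 and 6.04 in E16.5 mutants, against 6.03, 5.83, 5.91, 5.82 and 5.78 in E16.5 controls (0.29, SE 0.10, adjusted p = 0.702). The zinc transporter Slc39a6 had 10.13, 10.16, 10.02, 10.05 and 10.05 in E16.5 mutants, against 9.93, 9.94, 9.99, 9.91 and 9.79 in E16.5 controls (0.17, SE 0.07, adjusted p = 0.839). These were the 2 members whose groups did not overlap at E16.5, or 1.53% of the family, against 1% of all genes tested. The other 3 of the 6 smallest p-values were those of the S-adenosylmethionine carrier Slc25a26 (-0.34, SE 0.12), the sugar transporter Slc2a10 (0.25, SE 0.10) and the lysosomal peptide and histidine transporter Slc15a4 (0.20, SE 0.08), none of which passed. Since all 5 E16.5 mutants and 1 of 5 E16.5 controls were female, sex and genotype largely coincide at this stage, and with sex in the fit the count was again 0.

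The effect of the mutation itself differed between the stages in 15 members. This comparison tests the mutant difference at E18.5 minus that at E16.5, and 4 members were called higher and 11 lower, or 11.5% of the family, against 8.4% of all genes tested (3.62% higher and 4.78% lower). These include 4 members that met the limit only with the help of the E18.5 controls, and without those the counts were 4 higher and 7 lower of 125. The change between stages was -0.56 for Slc43a3 (SE 0.11), 0.55 for Slc38a5 (SE 0.11), -0.64 for Slc31a2 (SE 0.14) and -0.93 for Slc1a5 (SE 0.21, adjusted p = 0.0126). For the pyrimidine nucleotide carrier Slc25a33 the values were -0.31 at E18.5 and 0.29 at E16.5 (-0.60, SE 0.15), with the E16.5 difference short of the threshold. As values alone, Slc25a29 differed by -2.16 at E18.5 and -0.09 at E16.5 (-2.07, SE 0.38), and the change was -2.28 for Slc52a3 (SE 0.51). Likewise, Slc45a3 differed by -1.50 at E18.5 and 0.06 at E16.5, and Slc37a1 by -1.06 at E18.5 and 0.18 at E16.5. Without E18.5 control replicate 3 the count was 27 (7 higher and 20 lower), and with arrays weighted by quality 38 (9 higher and 29 lower).

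**Figure D4:**
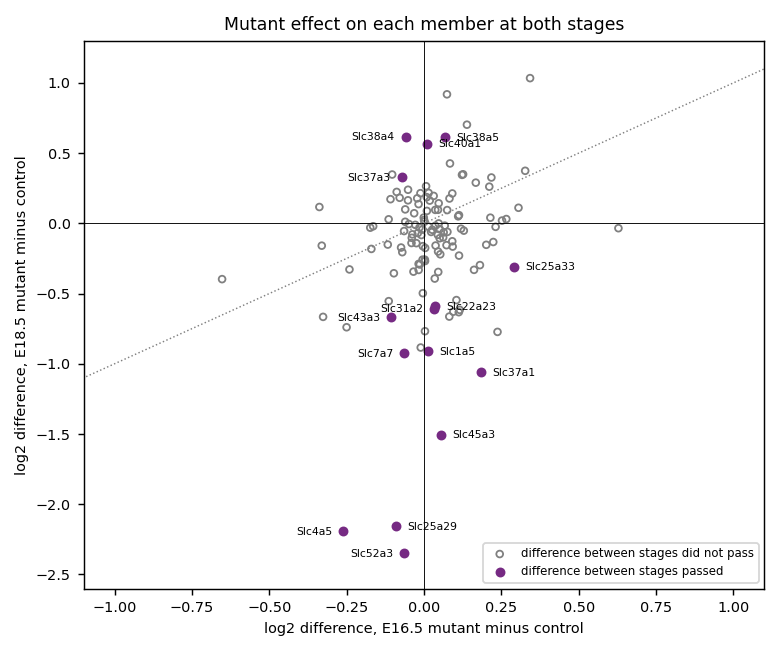
Mutant minus control log2 difference of each of 131 members at E16.5 (horizontal axis) and at E18.5 (vertical axis), with 5 animals per group. Filled, named points are the 15 members in which the difference between the stages passed, 4 of them chosen with the help of the E18.5 controls, and the dotted line marks equal differences. The members spread further along the vertical axis (-2.35 to 1.03) than along the horizontal (-0.65 to 0.63).

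Between the stages, a smaller share of the family than of all genes was called in either genotype. In all, 54 members were higher and 30 lower at E18.5 in controls (64.1% called, against 70.9% of all genes tested, 35.3% higher and 35.5% lower), with a median log2 difference of 0.16, against -0.01 for all genes. The stages did not overlap in 49 members in mutants (37.4%) and in 54 in controls (41.2%), against 42.4% of all genes tested in mutants and 51.2% in controls. In mutants 42 were higher and 21 lower (48.1%, against 56.2% of all genes tested, 28.7% higher and 27.6% lower), with a median of 0.07, against 0.00. Of the 84 members called in controls, 53 were called in the same direction in mutants, 34 higher and 19 lower. This is 63.1%, against 73.4% of all genes called in controls. Without the 9 members chosen through 1 stage, 46 were higher and 29 lower in controls, and 35 higher and 20 lower in mutants, of 122. The mutant comparison at E18.5 and the stage comparison in controls share the E18.5 controls, so their values are set side by side and no link between them is drawn.

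The largest difference with stage in controls was in Slc4a5, which exceeded 4 in all 10 E18.5 arrays and in 0 of 10 E16.5 arrays. Its log2 values at E18.5 were 7.20, 7.53, 6.48, 7.07 and 7.60 in controls, against 2.62, 2.37, 2.33, 2.41 and 3.38 at E16.5 (4.55, SE 0.34). In mutants it had 4.55, 4.12, 6.24, 4.23 and 5.79 at E18.5, against 2.38, 2.26, 2.43, 2.28 and 2.46 at E16.5 (2.62, SE 0.34). Slc52a3 was higher at E18.5 by 1.36 in mutants (SE 0.36) and by 3.64 in controls (SE 0.36). For Slc37a1 the stage difference was 0.97 in mutants (SE 0.15) and 2.21 in controls (SE 0.15). The stage difference of Slc25a29 was 0.02 in mutants (SE 0.27) and 2.09 in controls (SE 0.27). Without control replicate 3 the difference in controls was 4.01 for Slc52a3.

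Other large differences with stage were in metal, organic anion and amino acid transporters. The organic anion transporter Slc22a19 had log2 values of 6.60, 6.39, 2.99, 6.21 and 6.37 at E18.5 in controls, against 2.08 to 2.12 at E16.5, so that control replicate 3 stayed dim while its fellows exceeded 6. In mutants it had 4.42, 4.09, 5.74, 4.14 and 5.75 at E18.5, against 2.03 to 2.13 at E16.5. The stage difference was 2.74 in mutants (SE 0.51) and 3.61 in controls (SE 0.51), or 4.30 in controls without replicate 3. The zinc importer Slc39a4 differed by 2.43 in mutants (SE 0.26) and 2.87 in controls (SE 0.26), and Slc39a8, which carries zinc and manganese, by 1.83 in mutants (SE 0.20) and 2.33 in controls (SE 0.20). Slc6a14, a broad transporter of neutral and cationic amino acids, differed by 1.96 in mutants (SE 0.35) and 2.30 in controls (SE 0.35), and the potassium-chloride cotransporter Slc12a5 by 1.15 in mutants (SE 0.33) and 2.16 in controls (SE 0.33). The rises of Slc39a4, Slc39a8 and Slc6a14 passed in both genotypes. Slc22a19, Slc39a4, Slc39a8, Slc6a14 and Slc12a5 did not pass between genotypes at E18.5 (adjusted p = 0.192, 0.107, 0.0612, 0.150 and 0.0736). Even so, the genotypes did not overlap at that stage in Slc39a4. In Slc22a19, Slc39a8, Slc6a14 and Slc12a5 they overlapped only through control replicate 3.

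The largest falls with stage included the neutral amino acid transporters Slc38a1 and Slc38a4. Slc38a1 was lower at E18.5, with a difference of -1.24 in mutants (SE 0.24) and -1.93 in controls (SE 0.24). Slc38a4 had 8.40, 8.16, 8.53, 8.70 and 8.28 at E18.5 in controls, against 10.05, 10.16, 10.49, 10.26 and 10.17 at E16.5, and the stages were well apart (-1.81, SE 0.11, adjusted p = 3.19e-10). In mutants the difference of Slc38a4 was -1.13 (SE 0.11). For Slc25a13 it was -0.89 in mutants and -1.73 in controls (SE 0.22 each), and for Slc19a1 -0.81 in mutants and -1.37 in controls (SE 0.14 each). Slc7a5 went further down in mutants (-1.78, SE 0.25) than in controls (-1.03, SE 0.25), a difference that did not pass (adjusted p = 0.196). The metal transporter Slc39a14 differed by -0.52 in mutants and -0.97 in controls. The nucleotide sugar transporter Slc35b4 (-0.75 in mutants and -0.95 in controls) and the glucose transporter Slc2a3 (-0.82 and -0.87) passed in both genotypes.

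Of the 84 members called with stage in controls, 2 were called in the opposite direction in mutants. The share over all genes tested was not counted. Slc38a5 was higher at E18.5 in mutants (0.33, SE 0.08, adjusted p = 0.00191) and lower in controls (-0.21, SE 0.08, adjusted p = 0.0258). Slc40a1 did likewise (0.28 in mutants, adjusted p = 0.0294, and -0.28 in controls, adjusted p = 0.0233). An outlying animal enters a stage difference of each gene, E18.5 control replicate 3 for Slc38a5 (9.41) and E18.5 mutant replicate 5 for Slc40a1 (8.68). Stage differences without these animals are not given. In E16.5 arrays of both genotypes Slc38a5 lay between 9.84 and 10.13, so that all 5 E18.5 mutants were above that range and all 5 E18.5 controls at 9.84 or below.

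By class, the stage comparison in mutants against that in controls gave 10 against 12 higher and 2 against 5 lower of 22 metal ion transporters. Of 19 amino acid transporters 8 were higher and 4 lower in mutants, and 9 higher and 6 lower in controls. Among mitochondrial carriers more fell than rose, with 0 higher and 6 lower of 27 in mutants and 5 higher and 8 lower in controls. The share lower was nonetheless smaller than in all genes tested, at 22.2% against 27.6% in mutants and 29.6% against 35.5% in controls. Called in either direction were 22.2% of these carriers in mutants, against 56.2% of all genes tested, and 48.1% in controls, against 70.9%. Of 11 chloride, bicarbonate and sulfate transporters 6 were higher and 0 lower in mutants, and 7 higher and 1 lower in controls. In mutants 54.5% of metal ion, 63.2% of amino acid and 54.5% of chloride, bicarbonate and sulfate transporters were called, against 56.2% of all genes tested. In controls these shares were 77.3%, 78.9% and 72.7%, against 70.9%. These are counts and shares of calls in each genotype, and the classes were not tested against each other.

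**Figure D5:**
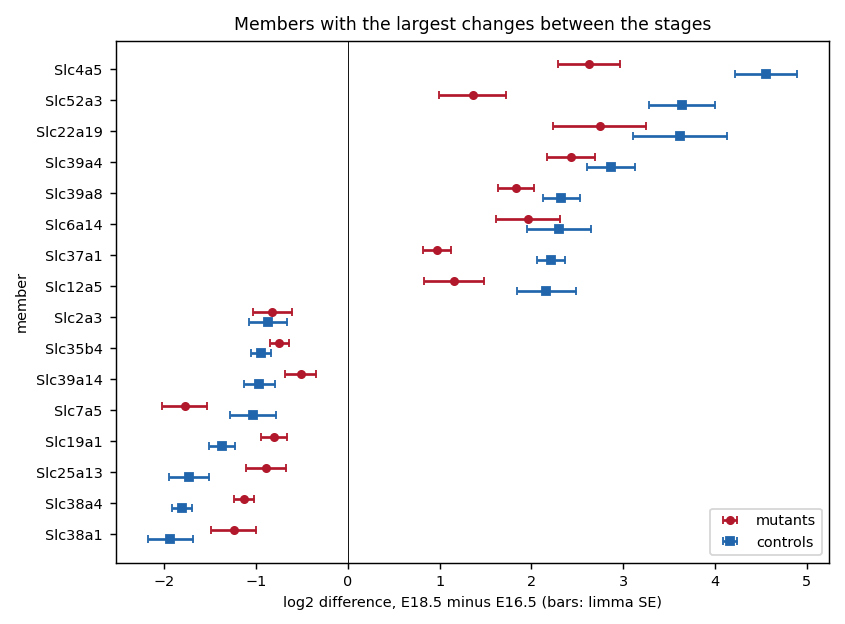
E18.5 minus E16.5 log2 difference of the 8 members with the largest rises and the 8 with the largest falls in controls, with mutants as circles and controls as squares (5 animals per group and stage). Bars show the limma SE. In all 16 members both genotypes moved the same way, and Slc7a5 is the member whose mutant difference (-1.78) lies further from 0 than that of controls (-1.03). The 16 were picked by their change in controls. Of these, Slc4a5, Slc52a3, Slc22a19, Slc37a1, Slc12a5 and Slc39a14 met the filter through 1 stage alone, which favoured the direction shown.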

How the data were processed

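Gene expression was measured in 20 left lung lobes, 5 in each of 4 groups given by the titles and genotype labels. The deposited log2 expression values come from the GCRMA method, which corrects for background, scales the arrays to each other and summarises the probes of a set, per the submitters' processing notes. Its version was not given in the sources read, and no further transformation was applied. The table holds 22690 probe sets, of which 20380 name 1 gene, 691 several and 1619 none or array controls, by the platform annotation. For each of 12393 genes the brightest probe set on average over the arrays was used, and a gene was tested when its log2 value exceeded 4 in at least 5 arrays, which left 8068. A log2 value under 4 is called dim. Background correction and this floor shrink differences of dim genes.

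A model with 1 mean per group was run on all arrays together (limma 3.58.1, functions lmFit and eBayes, two-sided, R 4.3.3), with Benjamini-Hochberg adjustment over the 8068 genes and a threshold of 0.05. Errors are limma standard errors for differences and SD over 5 animals for means. Array medians were 5.70 to 5.87, 13088 to 13319 probe sets per array lay above 4, and the number of arrays limits the precision. The fit was tested on simulated data. Members, substrate classes and lists were chosen with earlier results of these data known. Named genes are the 12 largest called rises and falls at E18.5, up to 3 called members per class, the 6 smallest p-values at E16.5, the 8 largest stage rises and falls in controls, the 8 smallest p-values for the difference between stages, the brightest member per class and the 4 largest changes per related list. The labels do not say what the replicate numbers mean, and no pairing was used. Alternatives covered the filter, the scaling, which probe set stands for a gene, how variances are moderated, weights per array, sex, the replicate number as a block, a fold threshold and each array left out. Probe sets naming several genes were left out, since their signal cannot be assigned. Promoter windows were taken from RefSeq (GRCm38.p6) with Python 3.11.15, and 12 motifs were searched in them, all of which are reported.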

Additional observations from a re-analysis of the deposited data

Results flagged for a closer look

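A value is listed here when 1 of 5 animals in a group lay far from the other 4 by Dixon's criterion, or when the mutant difference itself changed between the stages. Of 180 sets of 5 values in 45 named members, 26 (14.4%) held an outlying array, where about 5% would be expected by chance, and 12 of these were E18.5 control replicate 3. In that animal Slc12a5 measured 3.21, Slc1a1 4.38, Slc20a2 7.34, Slc22a19 2.99, Slc25a13 6.87, Slc25a29 4.47, Slc31a1 9.48, Slc38a5 9.41, Slc39a6 9.52, Slc46a1 4.51, Slc52a3 5.22 and Slc6a14 8.40, as log2 values.

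Among E18.5 mutants, Slc25a26 was outlying in replicate 5 (5.45) and so was Slc40a1 (8.68). Replicate 3 of that group was outlying for Slc25a29 (4.20) and Slc35f6 (4.87), and replicate 4 for Slc2a10 (5.48) and Slc37a3 (8.21). Among E16.5 mutants the outlying values were Slc1a1 at 4.01 and Slc35f6 at 5.62 in replicate 4, and Slc38a1 at 7.60 in replicate 1. Among E16.5 controls they were Slc25a47 at 4.25 and Slc2a10 at 5.13 in replicate 4, and Slc35b2 at 7.76, Slc44a3 at 7.23 and Slc4a5 at 3.38 in replicate 5.

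The mutant difference at E18.5 minus that at E16.5 passed in limma for 10 named members that met the level for testing without the E18.5 controls. It was negative for Slc4a5 (-1.93), Slc1a5 (-0.93), Slc7a7 (-0.86), Slc31a2 (-0.64), Slc25a33 (-0.60) and Slc43a3 (-0.56). It was positive for Slc38a4 (0.68), Slc40a1 (0.56), Slc38a5 (0.55) and Slc37a3 (0.40). Slc52a3 (-2.28), Slc25a29 (-2.07), Slc45a3 (-1.56) and Slc37a1 (-1.25) reached that level only with the help of the E18.5 controls, where they are high, and theirs are given as values. Slc4a5 reached it through E18.5 arrays alone and was dim in every E16.5 array of both genotypes. The floor thus limits its E16.5 difference, and its change between the stages is best read as a value too.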

How the results depend on the processing

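Among 2282 refits of 77 named differences under 30 settings, 2221 kept their direction and their side of the threshold, 61 kept their direction and lost the call, and 0 turned. The 77 include the differences given above as values alone. For those, the choice of members favoured the direction, so that keeping it is no support. With the added demand of a 1.5-fold change, the calls numbered 20 for E18.5 mutants against E18.5 controls, 40 for E18.5 against E16.5 in controls and 30 in mutants, because that demand only removes calls. The count for the difference between stages was 15, against 38 with array weights and 27 without E18.5 control replicate 3, and the cause was not tested. Leaving out 1 array at a time gave 28 to 42 members for mutants against controls at E18.5, 0 at E16.5, 77 to 85 for stage in controls, 55 to 65 for stage in mutants and 13 to 27 for the difference between stages. The fits with the replicate number as a block gave 43, 0, 85, 65 and 16 in the same order. Deviations of same-numbered samples from their group means correlated between -0.43 and 0.60, which does not settle whether the numbers pair samples. The numbers were treated as names. Of the named calls the block changed that of Slc35f6 alone (-0.34, adjusted p = 0.0566). The proteins that bind carriers were left out as an alternative chosen after seeing the data, which gave 38 at E18.5. With sex in the fit, the E18.5 differences of Slc1a1 (-0.72, adjusted p = 0.0555) and Slc44a1 (0.21, adjusted p = 0.0566) and the difference between stages of Slc1a5 (-0.81, adjusted p = 0.0688) lost their calls. Fitted on the E18.5 arrays alone, Slc35b2, Slc1a1, Slc23a2, Slc44a1, Slc31a1 and Slc35f6 lost theirs (adjusted p = 0.0556 to 0.134). With no filter on dim genes Slc1a1 (adjusted p = 0.0649) and Slc35f6 (0.0528) lost theirs, and Slc35f6 did so too under quantile normalization, median centring and a trended, robust variance (0.0508 to 0.0738). The stage change of Slc31a2 was lost with the more variable probe set (-0.38, adjusted p = 0.435). Median centring moved the split for stage in mutants to 35 higher and 26 lower. Signal over background limits Slc52a3, Slc25a29, Slc45a3 and Slc37a1, whose values reach the dim range, and Slc4a5, which was dim in all E16.5 arrays.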
